A study of Mus musculus with 4 samples.

Results

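The heat shock genes described here are 10 genes taken by symbol from the table, with each of the 4 libraries shown: Hspa1a, Hspa1b, Hspa8, Hsph1, Dnajb1, Hsp90aa1, Hsp90ab1, Hspd1, Hspe1 and Hsf1. All 10 of 10 had a row among the 34745 genes of the deposited table, and all 10 passed the filter on low counts that left 13279 genes for testing. The RNA came from splenic CD4+ T cells of C57BL/6 mice that were taken as naive cells and cultured for 3 days towards regulatory T (Treg) cells. The control libraries, numbered 13 and 15, have the genotype wild type. The other two, numbered 22 and 24 and called Cre-labelled here, have the genotype Setd2-CD4 cre, in which a Cre recombinase driven by CD4 sequences is paired with Setd2, the gene of the enzyme that trimethylates lysine 36 of histone H3. That driver acts across the T cell lineage from the thymus on, so the label does not limit the deletion to Treg cells. The labels name neither the deleted exons nor the animals behind each library. Libraries of the same group could share an animal, and p-values reflect only how far these 4 libraries scatter, which can be a technical scatter.

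Heat shock proteins bind unfolded or newly made proteins and help them fold or be degraded. HSP70 chaperones work in cycles with J-domain proteins that deliver clients and with exchange factors that release the bound nucleotide, and HSP90 takes over many signalling proteins at a later step. Heat shock factor 1, the product of Hsf1, is held inactive by chaperones and, when misfolded proteins draw these away, binds repeats of the bases GAA and TTC in alternating direction upstream of its targets. In T cells, activation and fever-range temperature can raise many of these genes. The name cytosolic fits the first 7 genes listed, but not the rest: Hspd1 and Hspe1 encode the HSP60 and HSP10 subunits of the mitochondrial chaperonin, and Hsf1 encodes the regulator, not a chaperone.

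The upstream sequence of the strongly inducible HSP70 pair is shown because these were the members whose levels differed most between libraries. Promoter entries from RefSeq (GRCm38.p6) were found for 6 of the 10 members, namely Hspa1a, Hspa1b, Hsph1, Dnajb1, Hspd1 and Hspe1. The 250 bases before the start site lie at chr17:34972157-34972406 for Hspa1a and at chr17:34959239-34959488 for Hspa1b, both on the minus strand. Capitals mark matches to a heat shock element of 2 units, GAANNTTC or TTCNNGAA, each of which reads the same on both strands.
Hspa1a: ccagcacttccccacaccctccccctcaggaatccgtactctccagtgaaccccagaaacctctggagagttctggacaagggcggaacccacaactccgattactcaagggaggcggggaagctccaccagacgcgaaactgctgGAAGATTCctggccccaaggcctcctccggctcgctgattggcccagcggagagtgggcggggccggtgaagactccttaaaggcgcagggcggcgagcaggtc
Hspa1b: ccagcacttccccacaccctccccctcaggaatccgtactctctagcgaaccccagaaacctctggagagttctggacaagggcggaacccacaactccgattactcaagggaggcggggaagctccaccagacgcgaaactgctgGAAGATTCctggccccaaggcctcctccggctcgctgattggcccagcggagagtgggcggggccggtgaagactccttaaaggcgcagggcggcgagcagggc
The windows of the pair differed at 3 of 250 bases and each held 1 match, from 104 to 97 bases before the start. In Hsph1 the match lay 33 to 26 bases before the start (the 30 bases shown are chr5:149636351-149636380, minus strand). The RefSeq start used, 149636336, lies 40 bases inside the deposited gene, so this match falls within the span given for Hsph1. In Hspe1 3 overlapping matches made 2 runs of 3 alternating units. These runs overlap in 1 continuous stretch, from 89 to 72 bases before the start. The stretch and the 30 bases shown around it (chr1:55088053-55088082, plus strand) lie within the deposited span of the head-to-head neighbour Hspd1.
Hsph1: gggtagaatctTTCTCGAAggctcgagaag
Hspe1: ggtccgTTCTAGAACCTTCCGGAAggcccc
A 2-unit match stood in 12.8% of 32851 upstream windows of the same length, 3 or more 2-unit matches in 0.14% and a 3-unit match in 0.466%. The windows of Dnajb1 and Hspd1 held no match, and the sequence TATAAA was found on neither strand of the 6 windows. Hsph1, Dnajb1 and Hspd1 had 2 RefSeq entries each, and only the start nearest the deposited gene edge was searched. The stretch shown for Hspe1 lies on the other side of the Hspd1 start, outside the Hspd1 window. A match is a description of these letters, not of binding.

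Library totals ran from 14599957 to 16030869 counts, and 3 counts corresponded to 0.184 to 0.201 CPM (counts relative to scaled library totals). Setd2 stood at 113 to 146 CPM in the 4 libraries, and its log2 fold change was -0.17 (SE 0.14, edgeR adjusted p = 0.436), so the count over the whole gene does not separate the groups. The typical gene differed by 0.26 (median size of the log2 ratio) between Cre-labelled 22 and 24 and by 0.13 between the control libraries. The 6 markers of CD4 T cells summed to 2834 to 3038 CPM with no member past the test. Mitochondrially encoded genes held 4.96% to 5.06% of counts.

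Markers of other cells differed between libraries as well. B cell markers summed to 222 and 225 CPM in the controls and to 282 and 332 CPM in Cre-labelled 22 and 24, of which Ighm made up 207 to 308 CPM. The other 5 were at most 5.95 CPM in a control and had fitted ratios of 1.73 to 2.39. All 6 were above both controls in both Cre-labelled libraries, as were 31.1% of all tested genes. None of the 6 passed the test, where 5.53% of all tested genes were called higher. Pax5 measured 1.59, 1.88, 6.36 and 1.98 CPM in controls 13 and 15 and Cre-labelled 22 and 24. CD8 T cell markers summed to 125, 183, 182 and 78.5 CPM in the same order (0 of 2 past the test). Gamma-delta markers summed to 10.1 to 10.4 CPM in the controls and 26.3 and 34.7 CPM in Cre-labelled 22 and 24. Tcrg-C1 and Cd163l1 of 3 were called higher (5.53% of all tested genes). The third, Trdc, measured 5.09 and 6.57 CPM in controls 13 and 15 and 10.1 and 5.81 CPM in Cre-labelled 22 and 24. Its groups overlapped (adjusted p = 0.374). Of 4 dendritic cell markers, Xcr1 and Siglech were at 0 in all libraries, Zbtb46 rose from 9.32 and 7.18 CPM to 25.4 and 19.2 CPM (adjusted p = 0.0217) and Flt3 fell from 7.42 and 4.16 CPM to 2.01 and 1.79 CPM (adjusted p = 0.0449). The 4 NK cell markers summed to 26.3, 24.8, 17.0 and 11.8 CPM. Most of this was Eomes, which fell from 22.7 and 21.7 CPM to 10.2 and 7.53 CPM (adjusted p = 0.0205). The others did not fall with it: Tyrobp measured 2.45, 2.48, 4.015 and 3.19 CPM and Klrb1c 1.16, 0.671, 2.21 and 0.894 CPM, both uncalled. Ncr1, at 0, 0, 0.54 and 0.19 CPM, did not pass the filter on low counts. The 3 stromal and endothelial markers summed to 44.3, 42.6, 66.3 and 57.1 CPM, nearly all of it Pecam1 (adjusted p = 0.0592). Monocyte and erythroid lists summed to at most 26.6 and 2.70 CPM, with no marker past the test. Neutrophil markers summed to 1.78 and 0.47 CPM in controls 13 and 15 and 3.01 and 6.13 CPM in Cre-labelled 22 and 24. S100a9 and Ly6g were above both controls in both Cre-labelled libraries, as were 31.1% of all tested genes. Neither was called (edgeR adjusted p = 0.0801 and 0.0976). S100a8 overlapped and did not pass the filter on low counts. In bulk RNA, more cells of a type and more RNA per cell cannot be told apart, and the part of other cells in the results below was not tested.

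Of the 10 genes, the inducible HSP70 pair had the largest differences between the groups. Hspa1a (ENSMUSG00000091971, chromosome 17, 34969190 to 34972156, minus strand, GRCm38) and Hspa1b (ENSMUSG00000090877, chromosome 17, 34956436 to 34959238, minus strand) are intronless genes that encode nearly the same protein, the HSP70 that is scarce in resting cells and made on stress. Hspa1a measured 1.96 CPM in control 13, 2.42 CPM in control 15, 52.5 CPM in Cre-labelled 22 and 7.21 CPM in Cre-labelled 24. The groups did not overlap, but Cre-labelled 22 stood 7.27-fold above Cre-labelled 24. Hspa1a rose 13.6-fold (log2 fold change 3.77, SE 0.90; group means 2.19 ± 0.32 and 29.8 ± 32.0 CPM, SD, n = 2 each; edgeR adjusted p = 0.0478). Hspa1b measured 3.68, 3.29, 67.5 and 9.0 CPM in the same order. Its log2 fold change was 3.45 (SE 0.88) with an adjusted p of 0.0547, just outside the threshold of 0.05 that Hspa1a just passed. The call of Hspa1a was lost without control 13 (adjusted p = 0.0556) and without control 15 (0.066), with robust dispersion (0.159), with limma-voom (0.168) and with limma on log2(FPKM + 1) (0.117). Without Cre-labelled 22 the log2 fold changes of Hspa1a and Hspa1b were 1.73 and 1.38 (adjusted p = 0.0266 and 0.028), and without Cre-labelled 24 they were 4.58 and 4.27 (0.00183 each), so the size of the difference rests on Cre-labelled 22.

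This pair shares much of its sequence, so how its reads divide is uncertain, and the division was not tested. In GENCODE transcripts, 58.8% of the 50-base words of Hspa1a also occur in Hspa1b, and 62.3% of those of Hspa1b occur in Hspa1a. The pair was therefore also counted as a single gene: the summed level was 5.64 CPM in control 13, 5.70 CPM in control 15, 120 CPM in Cre-labelled 22 and 16.2 CPM in Cre-labelled 24. The sum was 21.2-fold above the control mean in Cre-labelled 22 and 2.86-fold above it in Cre-labelled 24, and its adjusted p was 0.0492 (log2 fold change 3.58). Hspa1b took 65.2% and 57.7% of the pair's counts in controls 13 and 15 and 56.3% and 55.5% in Cre-labelled 22 and 24. The antisense gene Gm20481, which lies inside Hspa1a, had 0 counts in every library.

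The genes whose pattern came closest to Hspa1a were sought over the 4 libraries by the distance between log2 CPM profiles centred on each gene's mean. The nearest was Hspa1l, the neighbouring and normally testis-enriched HSP70 gene (distance 0.177), followed by Hspa1b (0.438), Adamts16, a secreted metalloprotease gene (1.26), Dennd5b (1.40) and Havcr1, the gene of the receptor TIM-1 (1.43). Adamts16, Dennd5b and Havcr1 had 72, 55 and 31 counts in Cre-labelled 22 and at most 7 in a control. Hspa1l had 9 and 10 counts in controls 13 and 15, 219 in Cre-labelled 22 and 31 in Cre-labelled 24. Its counts were 28.1%, 27.8%, 27.9% and 27.4% of those of Hspa1a in these libraries. Of the 50-base words of Hspa1l, 9.57% occur in Hspa1a and 71.4% in the antisense gene Gm10501, whose counts were 43, 37, 16 and 37. Which transcripts gave the reads assigned to Hspa1l was not tested. With Hspa1a, Hspa1b and Hspa1l summed, the log2 fold change was 3.60 (SE 0.86, adjusted p = 0.0482).

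**Figure D1:**
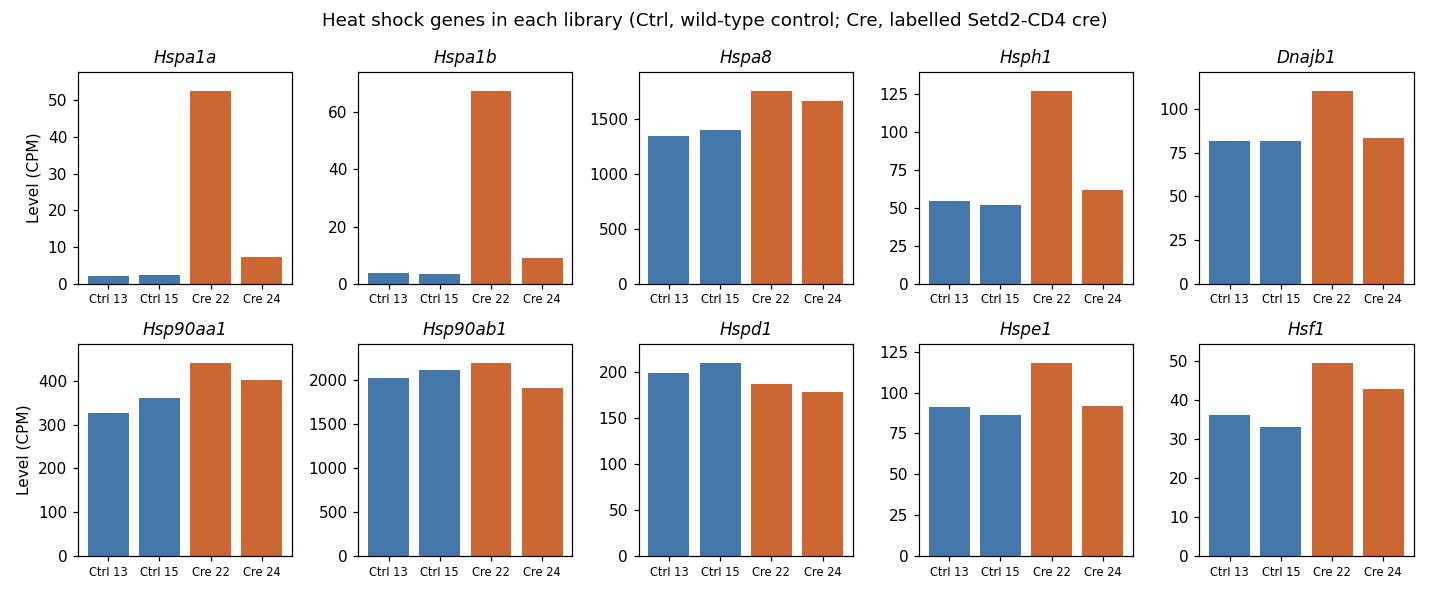
Level of each heat shock gene (CPM, each panel with its own axis from 0) in the control (blue) and Cre-labelled (orange) libraries; bars are single libraries. Hspa1a and Hspa1b reached 52.5 and 67.5 CPM in Cre-labelled 22 against 7.21 and 9.0 CPM in Cre-labelled 24, while Hspa8 and Hsp90ab1 differed far less.

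The constitutive partner Hspa8 and the exchange factor Hsph1 differed less. Hspa8 (ENSMUSG00000015656, chromosome 9, 40800984 to 40805200), the HSP70 present in unstressed cells, measured 1349 and 1395 CPM in controls 13 and 15 and 1754 and 1667 CPM in Cre-labelled 22 and 24. Both Cre-labelled libraries lay above both controls and close to each other, and the log2 fold change was 0.32 (SE 0.10, adjusted p = 0.0855). Of its 50-base words, 68.8% occur in transcripts of 13 other genes. Gm26825, in which 63.4% of all words of Hspa8 occur, had 0 counts in every library. Gm15459, Gm8355 and Gm6210, with 64.4%, 42.3% and 32.3% of the words, had no row among the deposited genes. Where shared reads were assigned was not tested. Hsph1 (ENSMUSG00000029657, chromosome 5, 149614287 to 149636376), which encodes HSP110, an exchange factor for HSP70, measured 54.1, 51.9, 127 and 61.7 CPM. Cre-labelled 22 stood 2.39-fold over the control mean and Cre-labelled 24 1.16-fold over it. Its log2 fold change was 0.83 (SE 0.31, adjusted p = 0.126), and it was 0.23 without Cre-labelled 22 and 1.25 without Cre-labelled 24 (adjusted p = 0.186 and 0.00326). No other transcript shared a 50-base word with Hsph1. The J-domain gene Dnajb1 (ENSMUSG00000005483, chromosome 8, 83608175 to 83611902), whose product delivers clients to HSP70, measured 81.6, 81.4, 110 and 83.1 CPM. Cre-labelled 24 stood 1.02-fold over the control mean, and the log2 fold change was 0.24 (SE 0.17, adjusted p = 0.351).

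Neither cytosolic HSP90 gene passed the test. Hsp90ab1 (ENSMUSG00000023944, chromosome 17, 45567775 to 45573271), the constitutive cytosolic form, measured 2027 and 2112 CPM in the controls and 2191 and 1911 CPM in Cre-labelled 22 and 24. The groups overlapped, and the log2 fold change was -0.01 (SE 0.11, adjusted p = 0.949), a value whose sign turned with the filter and with the library left out. Hsp90aa1 (ENSMUSG00000021270, chromosome 12, 110690605 to 110702728), the more inducible form, measured 326, 362, 440 and 401 CPM (log2 fold change 0.29, SE 0.12, adjusted p = 0.150). Another gene, Gm12346, contains 44.1% of the 50-base words of Hsp90aa1 and had 1992 and 1799 counts in the controls and 1550 and 1810 in Cre-labelled 22 and 24. With both summed, levels were 448, 482, 544 and 517 CPM and the log2 fold change was 0.19 (adjusted p = 0.28).

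The mitochondrial chaperonin genes stand head to head on chromosome 1, with their start regions overlapping by 112 bases on opposite strands, and their fitted differences had opposite signs. Hspd1 (ENSMUSG00000025980, 55077835 to 55088243), the HSP60 subunit, measured 199 and 209 CPM in the controls and 187 and 178 CPM in Cre-labelled 22 and 24 (log2 fold change -0.16, SE 0.12, adjusted p = 0.383). Hspe1 (ENSMUSG00000073676, 55088132 to 55091307), the HSP10 lid, measured 91.5, 86.1, 118 and 92.0 CPM (log2 fold change 0.24, SE 0.16, adjusted p = 0.337). Both Cre-labelled libraries were below the controls for Hspd1 and above them for Hspe1, but neither gene passed the test. For Hspe1 the gap was narrow, with 92.0 CPM in Cre-labelled 24 and 91.5 CPM in control 13. In the deposited FPKM the groups of Hspe1 overlapped, at 53.0 in Cre-labelled 24 and 53.6 in control 13. The FPKM ratio of Hspd1 to Hspe1 was 1.36, 1.52, 0.992 and 1.21. Summing Hspd1 with its processed copy Hspd1-ps3 left the log2 fold change at -0.16 (adjusted p = 0.368). Of the 50-base words of Hspe1, 44.8% occur in transcripts of 7 other genes. The gene with the largest share, 35.2%, had no row among the deposited genes. The regulator Hsf1 (ENSMUSG00000022556, chromosome 15, 76477445 to 76500972) measured 36.2 and 33.1 CPM in the controls and 49.5 and 43.0 CPM in Cre-labelled 22 and 24. These groups did not overlap, and the log2 fold change was 0.41 (SE 0.14, adjusted p = 0.099).

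Counted together, 1 of the 10 genes was called higher and 0 lower by edgeR's quasi-likelihood test, where 5.53% of the 13279 tested genes were called higher and 4.59% lower. At an unadjusted p under 0.05 there were 6, all higher (31.6% of tested genes in either direction and 16.2% higher), and DESeq2 called 3 higher (Hspa1a, Hspa1b and Hsph1) and 0 lower, where it called 8.27% of genes higher. These tallies and those that follow count Hspa1a and Hspa1b as 2 genes, although how reads divide between them is uncertain. The median log2 fold change of the 10 was 0.305, beside -0.001 over all tested genes. Both Cre-labelled libraries exceeded both controls for 8 of the 10 genes (31.1% of all tested genes) and lay below both for 1 (32.7%). Of the 8, Dnajb1 and Hspe1 separated narrowly: Cre-labelled 24 stood at 83.1 and 92.0 CPM and control 13 at 81.6 and 91.5 CPM. In FPKM the groups of Hspe1 overlapped. Cre-labelled 22 was the highest of the 4 libraries for 9 of the 10 (32.2% of tested genes), and above Cre-labelled 24 for 10 of 10 (49% of tested genes). The median of the 10 lay 0.42 above the control mean in Cre-labelled 22 and 0.22 above it in Cre-labelled 24 on the log2 scale. Only 0.151% and 0.173% of tested genes differed more between the Cre-labelled libraries than Hspa1b and Hspa1a did, and 5.18% differed more than Hsph1. For Hspa8 and Hspd1 that share was 84.1% and 85%, so these 2 were among the genes on which the libraries were closest. With 2 libraries a group, the smallest p an exact permutation test of any 1 of these genes can reach is 0.333.

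**Figure D2:**
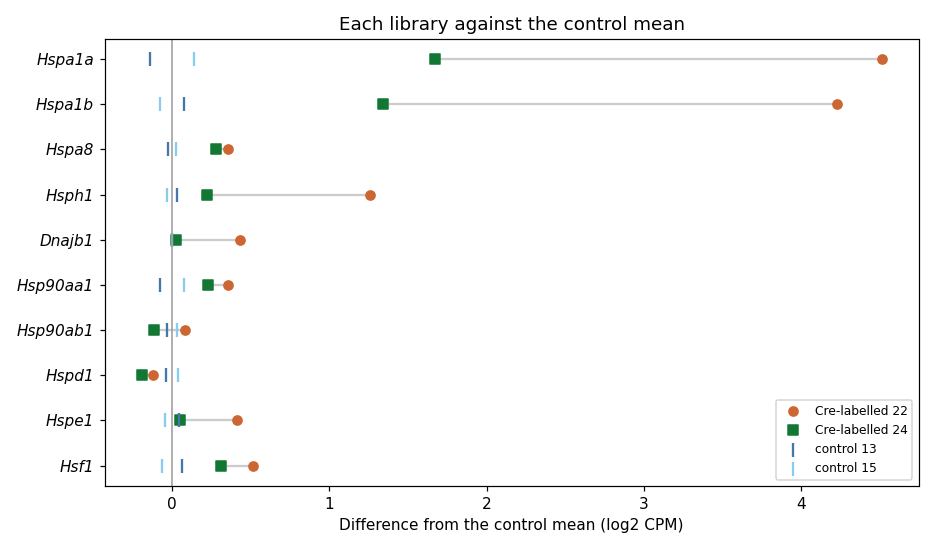
Difference of each library from the control mean (horizontal axis, log2 CPM) for the 10 genes; circles and squares are Cre-labelled 22 and 24, ticks the control libraries, and grey lines join the Cre-labelled pair. Hspa1a lay at 4.51 in Cre-labelled 22 and 1.67 in Cre-labelled 24, and Hsph1 at 1.26 and 0.22.

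The number of the 10 that was called depended on which library was left out. Without Cre-labelled 24, 8 of the 10 were called higher (15.5% of genes tested in that fit), all but Hsp90ab1 and Hspd1. Without Cre-labelled 22, 2 were called higher, Hspa1a and Hspa1b (7.24% of genes). Without control 13 or control 15, 0 were called (1.39% and 0.868% of genes called higher). In each of these fits the group with a single library is assumed to vary like the other group.

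**Figure D3:**
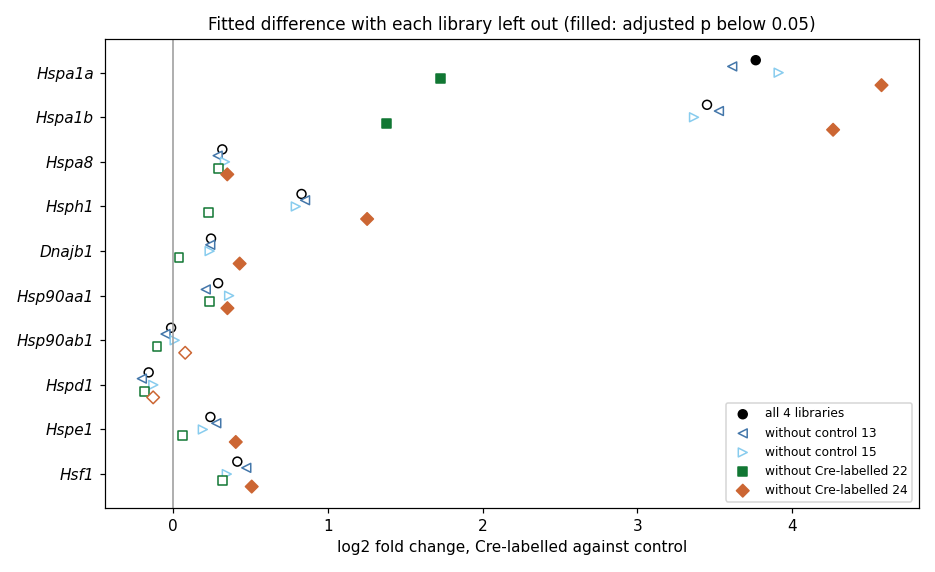
Fitted log2 fold change of each gene (horizontal axis) with all 4 libraries and with each library left out in turn; filled symbols passed an adjusted p of 0.05. Hspa1a lay at 3.77 with all libraries, at 1.73 without Cre-labelled 22 and at 4.58 without Cre-labelled 24.

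Levels between genes can be compared only per length, and for this the authors' deposited FPKM (fragments scaled to gene length and library size) were used. Hsp90ab1 was the highest, at 331 to 373 FPKM over the 4 libraries, followed by Hspa8 at 151 to 185 FPKM. Hspd1 (64.3 to 76.9 FPKM), Hsp90aa1 (50.5 to 64.1 FPKM) and Hspe1 (50.6 to 65.0 FPKM) came next, and the range of Hspe1 overlapped those of the other two. Dnajb1 stood at 36.7 to 46.6 FPKM and overlapped no other gene of the 10. Hsf1 stood at 16.8 to 23.5 FPKM, a range that the values of Hspa1b and Hspa1a in Cre-labelled 22 reached. Hsph1 (4.70 to 10.8 FPKM), Hspa1b (1.20 to 23.1 FPKM) and Hspa1a (0.673 to 16.9 FPKM) were the lowest and overlapped each other. The ratio of Hspa8 to the summed pair was 75.3 and 77.3 in the controls, 4.63 in Cre-labelled 22 and 32.5 in Cre-labelled 24. The ratio of Hsp90ab1 to Hsp90aa1 was 7.07 and 6.63 in the controls and 5.66 and 5.41 in the Cre-labelled libraries. The 10 genes together held 0.424% and 0.443% of all counts in the controls and 0.488% and 0.446% in Cre-labelled 22 and 24.

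The wider chaperone network was described from lists of cofactors and related families holding 95 genes, of which 86 were tested. Of these, 2 rose and 3 fell, where 5.53% of all tested genes were called higher and 4.59% lower. Its median log2 fold change was 0.025. Both Cre-labelled libraries were above both controls for 30 and below them for 30 (31.1% and 32.7% of all tested genes), and Cre-labelled 22 was the highest library for 28 of 86 (32.2% of all tested genes). Among the exchange factors and cofactors of HSP70, Bag3, a partner that rises on stress and directs clients to autophagy, measured 11.9 and 11.1 CPM in the controls and 24.3 and 20.8 CPM in Cre-labelled 22 and 24. Bag3 rose 1.96-fold (log2 fold change 0.97, adjusted p = 0.0272; 0.112 without control 13 and 0.176 without control 15). Bag2, an inhibitor of the ubiquitin ligase that acts on HSP70 clients, fell from 4.11 and 6.91 CPM to 2.08 and 1.66 CPM (log2 fold change -1.56, adjusted p = 0.0471), a call lost with any of the 4 libraries left out (0.0519 to 0.321). None of 17 HSP90 co-chaperones passed the test, with log2 fold changes from -0.52 to 0.50, nor did any of 16 J-domain genes (-0.63 to 0.77) or of 15 genes of the TRiC chaperonin and prefoldin (-0.39 to 0.32).

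Among 7 tested genes of the other HSP70 and HSP110 proteins none passed. Besides Hspa1l, the highest value was that of Hspa4l, an HSP110, with 127 and 121 CPM in the controls and 239 and 153 CPM in Cre-labelled 22 and 24 (log2 fold change 0.67, adjusted p = 0.0883). Hspa4, its relative, had a log2 fold change of 0.01. Of 8 small heat shock protein genes only Hspb6 and Hspb11 passed the filter on low counts, and neither was called. Among 6 tested HSF family members and regulators, Hsf2bp, whose product binds heat shock factor 2, rose from 2.08 and 1.61 CPM to 5.49 and 6.26 CPM (log2 fold change 1.66, adjusted p = 0.0265; 0.0664 without control 13 and 0.142 without control 15). Hsf2 measured 53.1, 53.4, 78.9 and 55.8 CPM (adjusted p = 0.253).

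Mitochondrial chaperones and proteases gave 0 higher and 2 lower of 14 (5.53% and 4.59% of all tested genes). Lonp1, the protease of the mitochondrial matrix, fell from 188 and 212 CPM to 105 and 108 CPM (log2 fold change -0.91, adjusted p = 0.0165; 0.0532 without control 13 and 0.129 without control 15). Trap1, the mitochondrial HSP90, fell from 109 and 116 CPM to 73.5 and 75.6 CPM (log2 fold change -0.59, adjusted p = 0.0372; 0.201 and 0.319 without controls 13 and 15). Hspa9, the mitochondrial HSP70 that works beside the chaperonin, measured 356, 431, 283 and 255 CPM (log2 fold change -0.55, adjusted p = 0.0538). In the endoplasmic reticulum, the HSP70 Hspa5 and the HSP90 Hsp90b1 rose by 0.57 and 0.59 on the log2 scale (adjusted p = 0.0289 and 0.025; both lost their call without either control library, at 0.139 to 0.295), and 3 other tested genes did not pass. Called higher were thus 2 of 5 endoplasmic reticulum genes (5.53% of all tested genes). The 3 uncalled, Hyou1, Dnajb9 and Dnajb11, had log2 fold changes of 0.52, 0.10 and -0.24. For the HSP90 family the log2 fold changes by compartment were -0.01 and 0.29 in the cytosol, 0.59 in the endoplasmic reticulum and -0.59 in mitochondria. A test of the difference between these genes was not run.

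Genes that respond to stimulation or to handling of cells were examined beside the heat shock genes. Of 18 tested, 0 rose and 3 fell (5.53% and 4.59% of all tested genes): Egr1 from 67.1 and 70.7 CPM to 29.9 and 32.8 CPM (adjusted p = 0.0116), Egr3 (0.0224) and Fosl1 (0.0253). Fos measured 8.95, 8.99, 11.3 and 10.2 CPM and Jun 56.9, 55.3, 71.5 and 66.5 CPM, and neither passed (adjusted p = 0.388 and 0.161). Cre-labelled 22 was the highest library for 6 of these 18 genes, among them Fosl2 and Atf3, a share close to the 32.2% of all tested genes. Fosl2 measured 214, 193, 516 and 299 CPM (adjusted p = 0.0507) and Atf3 18.1, 15.4, 33.9 and 21.0 CPM (adjusted p = 0.113). Egr3 and Fosl1 did not pass without control 13 (0.07 and 0.0522) or 15 (0.124 and 0.102). Whether handling or temperature differed between the cultures was not tested.

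**Figure D4:**
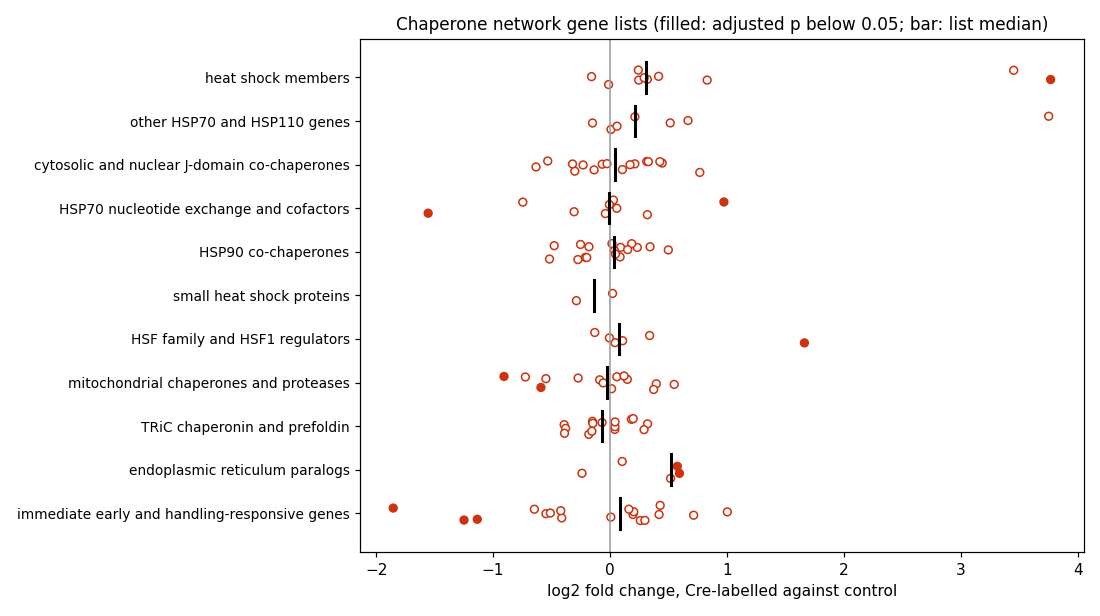
Log2 fold change (horizontal axis) of each tested gene in the heat shock group and the lists of related genes; filled points passed an adjusted p of 0.05 and bars are list medians. The heat shock group had a median of 0.305 and the co-chaperones of HSP90 one of 0.037.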

How the data were processed

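RNA of the 4 cultures was extracted with TRIzol and read on the Illumina HiSeq platform, per the labels' protocols. The submitters' processing notes name the tools Bowtie2 and RSEM and the build GRCm38.p6 (mm10). For tool versions, annotation release and strand setting the entry is "not given in the sources used here". The deposited table held whole-number counts and the authors' FPKM values for 34745 genes. The members and gene lists were chosen with earlier results of these data known. Members are named whatever their values, and other list genes where called; Fos, Jun, Fosl2, Atf3, Hspa4, Hspa4l, Hspa9, Hsf2, Gm12346 and other members named uncalled were chosen after their values were seen.

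Counts were tested with edgeR 4.0.16 in R 4.3.3: filterByExpr (minimum count 10, minimum total 15), trimmed mean of M values scaling, glmQLFit and glmQLFTest, two-sided, without covariates, with Benjamini-Hochberg adjustment over all 13279 genes tested and a threshold of 0.05. Standard errors are the log2 fold change over the square root of F. The test was also run on simulated counts that gave every gene the same dispersion. That run does not check p-values of genes that vary more, such as Hspa1a. Alternatives were other scalings and filters, robust dispersion, DESeq2 1.42.0, limma 3.58.1 (voom and log2(FPKM + 1)), an adjusted p below 0.01, a minimum fold of 1.5, summed copies and each library left out. Shared 50-base words were counted in GENCODE transcripts on both strands. Floors cover counting error only. Figures used matplotlib 3.10.9.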

Additional observations from a re-analysis of the deposited data

How the results depend on the processing

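Of the 10 heat shock genes, 1 was called higher with all libraries. Over all genes 734 were called higher. The count of the 10 was 3 with DESeq2 and with no filter on low counts (1098 and 1261 over all genes), and 0 with limma-voom, limma on log2(FPKM + 1), robust dispersion, an adjusted p below 0.01 and a minimum fold of 1.5 (699, 445, 848, 23 and 85 over all genes). It ran from 0 to 8 with each library left out (120 to 2122 over all genes). No alternative called a heat shock gene lower. Chaperone network genes called higher numbered 2, and 7 with DESeq2 and with no filter, 4 with a filter of 5 CPM, 0 at an adjusted p below 0.01 or a minimum fold of 1.5, and 0 to 15 with each library left out. Those called lower numbered 3, and 6 with no filter, 0 at an adjusted p below 0.01 or a minimum fold of 1.5, and 0 to 16 with each library left out. Network genes called lower numbered 4 with upper-quartile scaling, library totals, robust dispersion and DESeq2 (590, 771, 742 and 912 over all genes). They numbered 2 with a filter of 5 CPM and both limma runs (566, 618 and 446 over all genes). Over all genes 610 were called lower in the main test and 1088 with no filter. An adjusted p below 0.01 and a minimum fold of 1.5 left 6 and 35. Network genes called higher numbered 3 with DESeq2 scaling and robust dispersion. The causes of these shifts were not tested. The log2 fold change of Hsp90ab1 changed sign with a filter of 5 CPM (0.001), without control 15 (0.01) and without Cre-labelled 24 (0.078), in a range of -0.104 to 0.078 over the libraries left out. The other 9 kept their sign under every alternative run. Summing near-identical copies was chosen after seeing the data and moved no call. No paired analysis was possible because the groups share no library numbers.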

Other observations

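A few chaperone genes that were not called are given as values, chosen after these were seen. Cre-labelled 22 was the highest library for 28 of the 86 tested network genes, a share close to the 32.2% of all tested genes. Dnaja1, a J-domain partner of HSP70, measured 104 CPM in controls 13 and 15, 131 CPM in Cre-labelled 22 and 92.9 CPM in Cre-labelled 24. The small heat shock gene Hspb1 measured 0.552 and 0.537 CPM in the controls, 1.61 CPM in Cre-labelled 22 and 0.319 CPM in Cre-labelled 24 and did not pass the filter on low counts. Dnajb2, another J-domain gene, measured 22.6, 24.1, 47.3 and 32.2 CPM (edgeR adjusted p = 0.062). The HSP90 co-chaperone genes Fkbp4 and Nudc were lowest in Cre-labelled 22: Fkbp4 measured 148, 166, 97.6 and 128 CPM and Nudc 92.5, 89.4, 53.8 and 73.2 CPM (adjusted p = 0.105 and 0.0995).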
